A study of Mus musculus with 24 samples.

Results

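The ADAM, ADAMTS and ADAMTS-like genes of the mouse were described in skin of the abdomen, back and cheek, unwounded and 3 days after wounding. The members were all genes of the expression table whose symbol starts with Adam, Adamts or Adamtsl followed by a digit. These were 48 of 18368 genes, made up of 24 Adam, 19 Adamts and 5 Adamtsl genes. All libraries came from CD1 mice, an outbred stock for which the labels name no engineered allele. The mice were 7 weeks old, were timed to be in telogen (the resting phase of hair growth), and received 1 full-thickness punch wound on the cheek or 2 on the abdomen or back. Each of the 12 mice was wounded at a single site, and gave 1 library of a wound of 2 mm diameter at day 3 and 1 library of unwounded skin beside it. This made 6 groups of 4 libraries, which were the unwounded skin and the wounds of abdomen, back and cheek. The 4 mice of a site were separate animals, mouse 1 of the abdomen was not mouse 1 of the back or cheek, and a p-value here measures the spread between mice of this stock.

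RNA levels were deposited as FPKM (fragments per length of transcript and per total of mapped fragments), a scale per length on which genes can be compared with each other. The table holds no read counts, so sequencing depth and counting error were unknown. FPKM summed to between 490830 and 608888 per library, and between 15781 and 16577 genes were above 0. Marker genes of keratinocytes, fibroblasts, endothelium and macrophages were present in all 24 libraries. In the unwounded skin of cheek mouse 4, however, the summed level of trichohyalin and 4 keratins of the growing hair follicle was 4599 FPKM, against 75.1 FPKM or less in every other library, which goes against its telogen label. The unwounded abdomen libraries of mice 2 and 3 held 449 and 2418 FPKM of 7 skeletal muscle genes, against 10051 to 20234 FPKM in the other unwounded libraries. Results that rest on these libraries are given with and without them.

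ADAM proteins are mostly membrane-anchored metalloproteinases that cut the extracellular part off other membrane proteins, a process called shedding, and so release growth factors, cytokines and adhesion molecules. ADAMTS proteins are secreted, carry thrombospondin repeats that hold them in the extracellular matrix, and cleave matrix proteins such as versican and procollagens. ADAMTS-like proteins share the repeats but lack the catalytic domain. In skin, ADAM10 and ADAM17 are known for Notch and epidermal growth factor receptor signalling in the epidermis, and ADAMTS2 for the maturation of dermal collagen.

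The summed level of the 48 members was 294 ± 22.8 FPKM in unwounded abdomen skin, 304 ± 27 FPKM in back and 275 ± 22.7 FPKM in cheek (mean ± SD, n = 4 each). In wounds it was 315 ± 29.4 FPKM in abdomen, 361 ± 9.99 FPKM in back and 365 ± 19.9 FPKM in cheek. A few genes made up most of this sum. Adamts2, which removes the amino-terminal propeptide of fibrillar procollagens, was the most abundant, with a median of 22.2% of the sum over libraries and a range of 8.62% to 38.7%. Adam15, a shedding enzyme with an integrin-binding disintegrin domain, had a median of 16.7%, and Adam10, Adam17 and Adam9 had medians of 8.04%, 6.80% and 6.76%. Adam8, an enzyme of myeloid cells and inflamed tissue, ranged from 0.842% to 13.1%. The sums by role are given as a description, with no test. The 9 catalytic ADAMs of somatic tissue summed to 125 ± 10.8, 115 ± 8.24 and 123 ± 7.90 FPKM in unwounded abdomen, back and cheek, and to 174 ± 16, 203 ± 10.5 and 215 ± 6.38 FPKM in the wounds. The 3 procollagen N-propeptidases were lower in the mean of the wounds, with 93.5 ± 11.9, 110 ± 17.1 and 63.6 ± 12.7 FPKM in unwounded skin and 64 ± 11.7, 69.5 ± 11.8 and 50.8 ± 14.3 FPKM in wounds. The 5 ADAMTS-like genes summed to 29.7 ± 1.08, 36.8 ± 3.52 and 37.5 ± 7.56 FPKM before and 22.7 ± 2.37, 21.7 ± 1.32 and 23 ± 4.29 FPKM after wounding. In the cheek, both of the last sums overlapped between the unwounded and wound libraries. Because the tissue was taken whole, fewer cells of a type and less RNA per cell cannot be told apart.

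**Figure D1:**
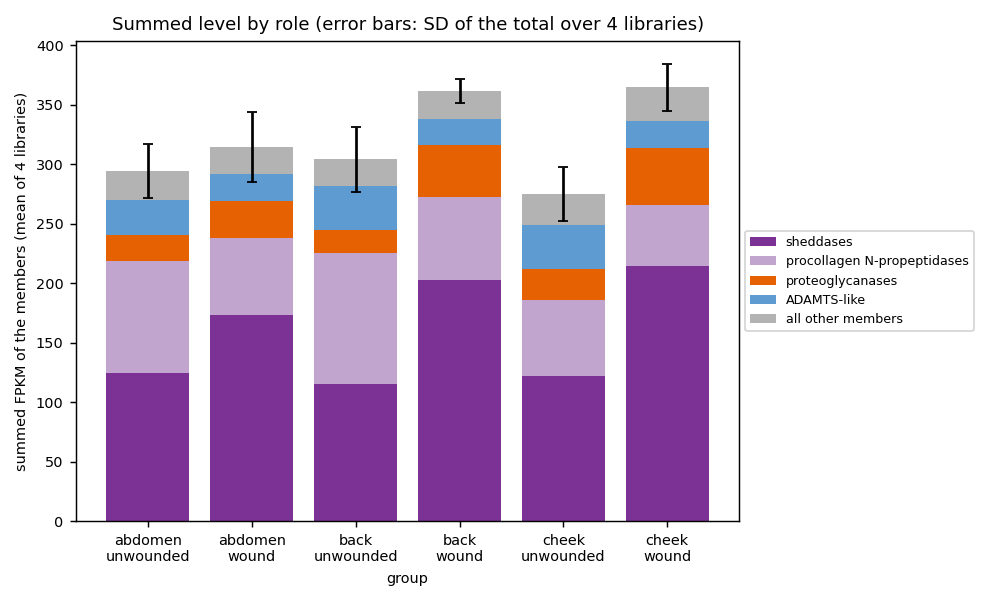
Stacked bars of the summed FPKM of the members by role, as the mean of 4 libraries, for the 6 groups on the horizontal axis, with error bars for the SD of the total. The sheddase segment is taller in wounds than in unwounded skin at each site (174, 203 and 215 against 125, 115 and 123 FPKM in abdomen, back and cheek), while the segments of N-propeptidases and ADAMTS-like genes are shorter.

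The first comparison asked which members changed in day 3 wounds against the unwounded skin of the same mice. A gene was tested when 4 or more of the 24 libraries reached 0.5 FPKM, which kept 31 members (12 Adam, 14 Adamts and 5 Adamtsl) among 14423 genes and left 17 untested. Of the 31, 20 were at or above 0.5 FPKM in every library, while Adam1a passed only through its high unwounded abdomen libraries, Adamts20 only through unwounded cheek and Adamtsl3 only through the cheek. Each site was tested with limma on log2(FPKM + 0.5) with a term for each mouse, and a change was called at an adjusted p under 0.05. Fold changes are on this log2 scale, which understates the change of low genes, and are given ± SE.

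Adam8, Adam12, Adamts4, Adamts15, Adamts7 and Adam19 rose most, and each rose at all 3 sites. In abdomen wounds 9 members rose and 5 fell, or 45.2% of those tested against 32.9% of all tested genes. Among back wounds 14 were higher and 5 lower, or 61.3% against 45.9%, and among cheek wounds 13 were higher and 5 lower, or 58.1% against 36.6%. For the mean of the 3 sites, 14 rose and 10 fell, or 77.4% against 62.7% of all genes (33.3% higher and 29.4% lower). By direction, the background for the 3 sites was 16.9%, 28% and 19.7% of genes higher and 16%, 17.9% and 16.9% lower. The median log2 fold change of the 31 members stood at -0.17 for abdomen, 0.22 for back and 0.26 for cheek, beside -0.01, 0.07 and 0.01 for all tested genes. At an adjusted p under 0.001, 5 members rose and 1 fell in abdomen (3.92% of all genes higher and 1.04% lower, 4.96% in all), 9 and 2 in back (10% and 4.37%, 14.4% in all) and 6 and 1 in cheek (6.5% and 2.19%, 8.69% in all). At this threshold 14 rose and 4 fell in the mean of the 3 sites (19.1% and 14.4% of all genes, 33.4% in all). Every mouse was higher in the wound for 10 members at the abdomen, 15 at the back and 13 at the cheek (23.7%, 33.9% and 25% of all tested genes), and every mouse was lower for 12, 7 and 6 members (25%, 22.6% and 25.4%). A total of 9 members rose at 3 sites, 4 at 2 sites and 1 at 1 site, while 1 fell at 3 sites, 5 at 2 sites and 2 at 1 site. No member rose at one site and fell at another. How often all tested genes were called at 1, 2 or 3 sites is not given here, so these site patterns are a description only. The filter favoured the falls of Adam1a in abdomen and cheek and of Adamts20 in cheek, which are in these counts, so nothing is drawn from those. Scaling moved the split in abdomen, to 9 higher and 3 lower with median-ratio scaling and 8 and 8 with quantile normalization. Without abdomen mice 2 and 3, 8 members were called in abdomen instead of 14. The members called then were Adam8, Adam12, Adam15, Adam19, Adamts4, Adamts7, Adamts15 and Adam33.

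**Figure D2:**
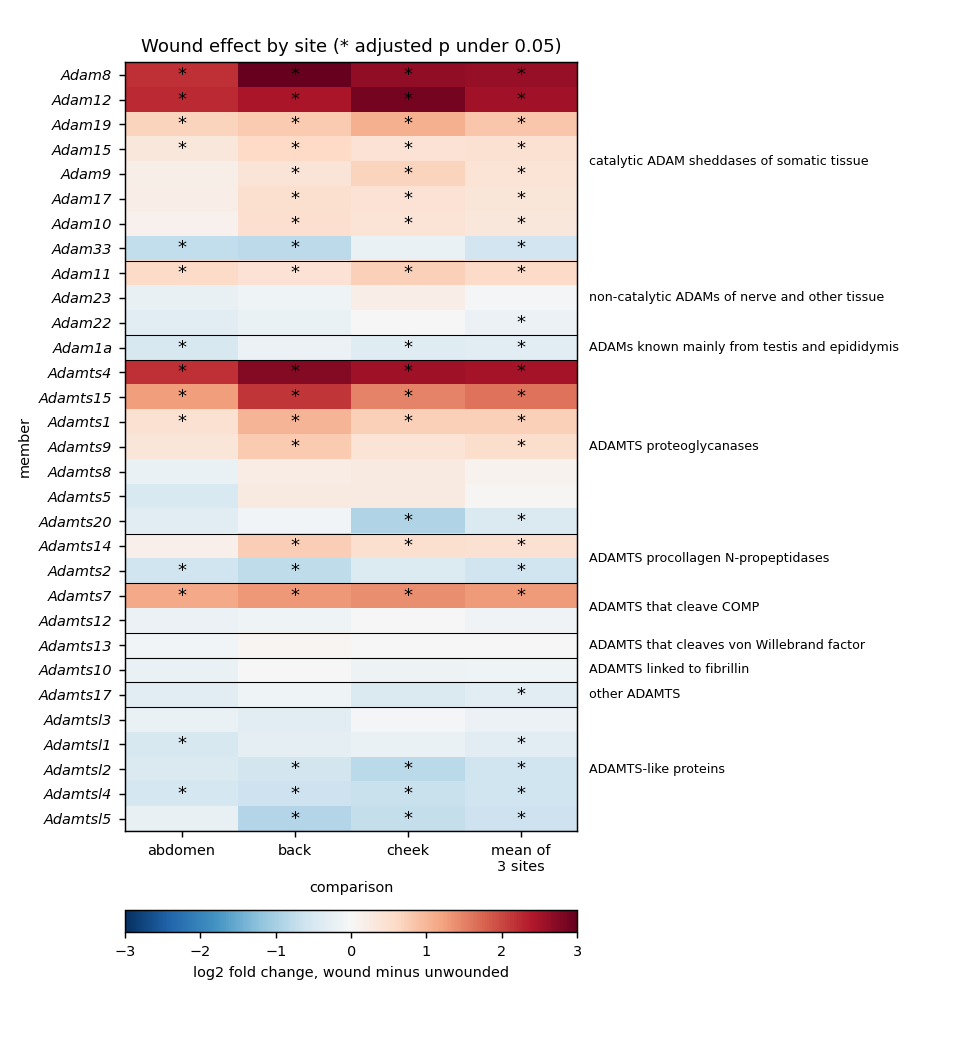
Heat map of the log2 fold change (wound minus unwounded) of the 31 tested members (rows, grouped by role) at each site and in the mean of the 3 sites (columns), with an asterisk for an adjusted p under 0.05. Red rows are concentrated in the catalytic ADAMs and the ADAMTS proteoglycanases, and the ADAMTS-like rows are blue, with Adam8 at 2.19, 3.01 and 2.67 and Adamtsl4 at -0.52, -0.62 and -0.68 in abdomen, back and cheek.

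Markers of other cells moved with wounding too. All 5 neutrophil markers rose at each site, and their summed level ranged from 7.99 to 36.9 FPKM in unwounded skin and from 337 to 2377 FPKM in wounds. All 5 endothelial and all 4 wound-edge keratinocyte markers also rose at each site, as did 4 of 6 macrophage markers in abdomen and 6 of 6 in back and cheek. Summed macrophage markers ranged from 375 to 765 FPKM in unwounded skin and from 701 to 1177 FPKM in wounds. All 4 adipocyte markers fell in abdomen and back, and 3 of 4 in cheek. Of the 5 fibroblast markers, 3 rose and 1 fell in back and in cheek, against 1 each way in abdomen. Their median summed level was lower in wounds, though the libraries overlapped at each site. It went from 1280 to 878 FPKM in abdomen, from 943 to 763 FPKM in back and from 1031 to 857 FPKM in cheek. Of the 7 skeletal muscle markers, 4 fell in back, 0 were called in abdomen or in cheek, and 6 fell in the mean of the 3 sites. Their summed level in back went from 12635 to 19826 FPKM down to 2900 to 4203 FPKM. In cheek it went from 10051 to 20234 FPKM down to 4377 to 6101 FPKM. The abdomen libraries overlapped. There the sum was higher in the wound of mice 2 and 3 (449 to 2316 and 2418 to 3741 FPKM). It was lower in mice 1 and 4 (13869 to 1634 and 12815 to 4863 FPKM). Of the 4 Schwann cell markers, 3 fell in the mean of the 3 sites. The part of these cell types in the changes of the members was not tested.

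Adam8 had the largest rise of the family in the mean of the 3 sites. The gene lies at chromosome 7, 139978932 to 139995207 (positions here are from RefSeq GRCm38.p6) and encodes a sheddase known from leukocytes. In abdomen, mice 1 to 4 had 4.64, 6.5, 5.36 and 4.91 FPKM in unwounded skin and 32.3, 21.5, 26.4 and 24.9 FPKM in the wound. The back libraries held 6.04, 2.46, 4.5 and 3.75 FPKM unwounded and 38.6, 31.8, 39.6 and 33.7 FPKM wounded, and the cheek libraries 6.94, 5.12, 5.58 and 3.96 and 33, 36.2, 48.6 and 30.1 FPKM. The highest unwounded library, at 6.94 FPKM, was below the lowest wound, at 21.5 FPKM, and the wound was higher in all 12 mice. On the log2 scale the fold change was 2.19 ± 0.17 in abdomen (4.56-fold, adjusted p = 4.68e-06), 3.01 ± 0.17 in back (8.06-fold, 1.88e-07) and 2.67 ± 0.17 in cheek (6.35-fold, 4.53e-07).

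Adam12, a sheddase of heparin-binding growth factors and of insulin-like growth factor binding proteins that is low in most adult tissue (chromosome 7, 133883199 to 134225097), rose by a similar amount. Unwounded abdomen skin held 0.92, 1.41, 1 and 1.26 FPKM and the wounds 10.5, 6.94, 4.95 and 7.39 FPKM. In back the values were 2.18, 1.02, 1.68 and 1.21 FPKM before and 11.5, 13.5, 8.9 and 8.17 FPKM after wounding, and in cheek 1.02, 1.13, 1.59 and 1.92 and 10.9, 14.2, 12.4 and 16.5 FPKM. Here again no unwounded library reached the lowest wound, and the wound was higher in all 12 mice. This gave a log2 fold change of 2.23 ± 0.19, 2.45 ± 0.19 and 2.88 ± 0.19 in abdomen, back and cheek (adjusted p = 9.72e-06, 1.71e-06 and 6.7e-07).

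Adam19, the meltrin-beta sheddase of neuregulin (chromosome 11, 46054502 to 46147347), rose less. In abdomen it went from 4, 6.23, 5.13 and 6.47 FPKM to 8.57, 9.8, 6.78 and 10.6 FPKM in mice 1 to 4. The back libraries had 5.13, 5.7, 7.36 and 6.78 FPKM in unwounded skin and 11, 10.9, 10.3 and 11.7 FPKM in wounds, and the cheek libraries 6.74, 6, 5.13 and 3.51 and 12.2, 13.8, 10.4 and 9.6 FPKM. The wound was higher in all 12 mice and the groups of each site were apart, although the lowest abdomen wound (6.78 FPKM) was below the highest unwounded back library (7.36 FPKM). Its log2 fold change was 0.67 ± 0.12, 0.77 ± 0.12 and 1.06 ± 0.12 (adjusted p = 0.00149, 0.000253 and 3.6e-05).

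Adam9, Adam10, Adam15 and Adam17, the abundant catalytic ADAMs, had smaller log2 fold changes than the members above. Adam15 rose at all 3 sites, by 0.34, 0.59 and 0.44 on the log2 scale, from 45.4 ± 2.91 to 57.5 ± 4.84 FPKM in abdomen, from 45 ± 7.48 to 67.3 ± 2.6 FPKM in back and from 43.9 ± 4.45 to 59.5 ± 1.81 FPKM in cheek. Adam9, Adam10 and Adam17 rose in back and cheek. Their log2 fold changes there were 0.39 and 0.67 for Adam9, 0.49 and 0.42 for Adam10, the main Notch sheddase, and 0.49 and 0.44 for Adam17, which releases tumour necrosis factor. In abdomen these 3 genes did not pass the test, with log2 fold changes of 0.17 (95% interval -0.12 to 0.46), 0.12 (-0.11 to 0.35) and 0.19 (-0.00 to 0.39). The abdomen call of Adam15 was lost without abdomen mouse 4 (adjusted p = 0.122) and under quantile normalization, and the cheek call of Adam10 without cheek mouse 2 (0.0536). In back, Adam9 lost its call under both other scalings and without back mouse 1 (adjusted p = 0.155).

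Adam33, expressed by mesenchymal cells of airway and skin (chromosome 2, 131050819 to 131063814), was the catalytic ADAM that fell. The unwounded abdomen libraries held 3.94, 4.2, 4.74 and 3.43 FPKM and the wounds 1.67, 2.51, 2.98 and 2.02 FPKM. In back, 2.46, 3.23, 2.74 and 3.63 FPKM stood beside 1.26, 1.62, 1.4 and 1.87 FPKM in wounds, and in cheek 2.76, 1.73, 1.82 and 1.36 beside 1.88, 1.36, 1.44 and 1.65 FPKM. All mice had less in the wound in abdomen and back, where the groups did not overlap, and 3 of 4 in cheek, where they did. The fold change on the log2 scale was -0.73 ± 0.12 in abdomen (adjusted p = 0.000772), -0.78 ± 0.12 in back (0.000206) and -0.19 ± 0.12 in cheek (0.22, 95% interval -0.45 to 0.06).

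Among the ADAMs that lack an active protease, Adam11 rose at the 3 sites (0.57, 0.43 and 0.7 on the log2 scale), from means of 0.448 to 0.535 FPKM to means of 0.780 to 1.10 FPKM. Its back call was lost in 2 of 12 fits that left out a mouse (adjusted p up to 0.0842, without back mouse 3). Adam22 and Adam23, like Adam11 best known from neurons, were not called at any site, and Adam22 fell in the mean of the 3 sites by 0.18 (adjusted p = 0.0346), a call lost in 5 of 12 such fits. Adam1a, known from sperm, had log2 fold changes of -0.47 in abdomen and -0.37 in cheek. These are given as a description, since the gene was tested only because its unwounded abdomen libraries were high, and the calls were lost in 2 and 4 of 12 fits that left out a mouse. Its level was at most 0.85 FPKM, and its exons share 1805 bases with Mapkapk5 on the same strand, so its reads cannot be assigned with certainty.

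The promoter sequences of a pair of members that rose and a pair that fell are shown next, for the 250 bases before a RefSeq start site on the gene's own strand (GRCm38.p6). They are chr7:139992563-139992812 (minus strand) for Adam8, chr11:46055734-46055983 (plus) for Adam19, chr11:50601835-50602084 (plus) for Adamts2 and chr10:80348449-80348698 (minus) for Adamtsl5, read from 5′ to 3′, set side by side because these members moved in opposite directions in wounds, with capitals marking a match to the AP-1 motif TGANTCA (searched on both strands).
Adam8: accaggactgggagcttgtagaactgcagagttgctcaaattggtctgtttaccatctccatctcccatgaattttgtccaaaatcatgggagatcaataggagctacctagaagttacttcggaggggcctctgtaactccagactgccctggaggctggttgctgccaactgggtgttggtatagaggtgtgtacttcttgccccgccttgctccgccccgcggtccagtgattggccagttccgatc
Adam19: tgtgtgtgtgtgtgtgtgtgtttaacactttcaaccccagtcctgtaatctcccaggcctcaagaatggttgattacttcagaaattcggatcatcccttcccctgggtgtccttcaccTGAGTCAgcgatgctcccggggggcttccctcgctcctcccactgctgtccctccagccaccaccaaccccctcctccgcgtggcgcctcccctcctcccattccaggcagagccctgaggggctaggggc
Adamts2: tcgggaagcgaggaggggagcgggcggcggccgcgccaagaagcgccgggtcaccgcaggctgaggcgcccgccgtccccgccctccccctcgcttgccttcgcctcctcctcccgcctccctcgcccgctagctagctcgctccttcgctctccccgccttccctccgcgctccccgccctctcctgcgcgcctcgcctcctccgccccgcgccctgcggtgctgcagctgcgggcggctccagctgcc
Adamtsl5: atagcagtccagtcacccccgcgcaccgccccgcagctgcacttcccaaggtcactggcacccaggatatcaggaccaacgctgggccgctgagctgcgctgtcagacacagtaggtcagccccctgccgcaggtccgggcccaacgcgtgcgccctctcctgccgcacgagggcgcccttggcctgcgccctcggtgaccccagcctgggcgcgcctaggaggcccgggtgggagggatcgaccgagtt
In these lines the motif occurs once, in Adam19, starting 131 bases before the start site. Adam19 has 3 RefSeq start sites. The one shown was chosen because its window held the motif, and its other windows held no match. The match in the shown line was thus fixed by that choice. The start sites shown for Adam8, Adam19 and Adamtsl5 lie inside these genes, whose 5′ ends are at 139995207, 46054502 and 80349030. No window at the 5′ end of Adam8 or Adamtsl5 was held, so their lines do not describe the sequence there. Windows of 300 bases (250 before and 50 after a start site) were held for 26 of the 48 members, as 28 windows, and 3 of the 28 held the motif, those of Adam19, Adam1b and Adam29, against 7.81% of 32851 windows of all genes. The Adamts2 and Adamtsl5 windows had 41 and 29 CpG dinucleotides and that of Adam8 had 6. The 3 windows of Adam19 had 5, 11 and 5, the shown one 11. These 4 genes do not stand for the rest. The windows of Adam10, Adam15, Adam17, Adamts1, Adamts9 and Adamts14, which rose at 1 or more sites, had 32, 25, 30, 18, 25 and 44. Those of Adamtsl2, Adamtsl4, Adam1a and Adamts20, which fell at 1 or more sites, had 8, 24, 4 and 41. No entry was held for Adam12, Adamts4, Adamts7 and Adamts15.

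Among the ADAMTS proteoglycanases, which cleave versican and aggrecan, 4 of 7 rose in the mean of the 3 sites (Adamts1, Adamts4, Adamts9 and Adamts15). Of all tested genes, 33.3% rose there. Adamts20, tested only through its high unwounded cheek libraries, was lower, and Adamts5 and Adamts8 were not called. Adamts4 (chromosome 1, 171250129 to 171262267) was low in unwounded skin and rose most. Abdomen skin held 0.85, 0.87, 1.07 and 0.5 FPKM unwounded and 8.61, 4.69, 4.39 and 4.8 FPKM wounded. In back these values were 1.24, 0.56, 0.59 and 0.52 and 7, 9.34, 7.25 and 7.1 FPKM, and in cheek 0.66, 0.47, 1.42 and 1.94 and 7.01, 7.66, 8.07 and 10.8 FPKM. Each wound was above every unwounded library of any site. Fitted log2 fold changes were 2.18 ± 0.21, 2.76 ± 0.21 and 2.54 ± 0.21 in abdomen, back and cheek (adjusted p = 2.18e-05, 1.33e-06 and 3.19e-06).

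Adamts15, another versican-cleaving enzyme (chromosome 9, 30899155 to 30922452), rose at the 3 sites. The abdomen libraries had 1.87, 2.68, 2.45 and 2.7 FPKM unwounded and 7.32, 7.41, 5.45 and 5.7 FPKM wounded, the back libraries 1.29, 2.14, 2.44 and 1.57 and 10.1, 11, 9.13 and 8.82 FPKM, and the cheek libraries 2.99, 2.88, 2.72 and 3.32 and 8.08, 6.07, 14.9 and 10.2 FPKM. The highest unwounded value, 3.32 FPKM, was below the lowest wound value, 5.45 FPKM, and the cheek wounds were the most scattered. All 12 mice had a higher value in the wound. On the log2 scale the fold change was 1.25 ± 0.19, 2.14 ± 0.19 and 1.5 ± 0.19 (adjusted p = 0.000524, 4.06e-06 and 9.1e-05). Adamts1 rose at the 3 sites by 0.45, 1.02 and 0.7, and lost its abdomen call without abdomen mouse 1 (adjusted p = 0.176). Adamts9 rose in back by 0.78, with 0.36 in abdomen and 0.42 in cheek, where it did not pass the test (adjusted p = 0.0982 and 0.0514).

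Adamts5, known as an aggrecanase of cartilage (chromosome 16, 85858157 to 85901125), was not called at any site. The abdomen libraries held 6.53, 10.4, 10.5 and 8.96 FPKM unwounded and 7.36, 7.1, 5 and 6.43 FPKM wounded. In back the values were 5.96, 8.81, 10.8 and 10.1 and 12.2, 10.3, 11 and 9.34 FPKM, and in cheek 10.3, 8.98, 7.52 and 7.21 and 12.1, 6.91, 10.6 and 12.5 FPKM. The unwounded and wound values overlapped at each site, with 3 of 4 mice lower in abdomen and 3 of 4 higher in back and in cheek. For the mean of the 3 sites the log2 fold change was 0.03 (95% interval -0.23 to 0.3). Adamts8 had 0.1 (-0.07 to 0.26).

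Adamts2 (chromosome 11, 50602085 to 50807573) and Adamts14, a pair of enzymes that cut the same propeptide of procollagen, moved in opposite directions. Unwounded abdomen skin held 83.7, 82.5, 84.6 and 107 FPKM of Adamts2 and the wounds 54.4, 58.2, 49.2 and 75 FPKM. In back it was at 86.5, 97.5, 120 and 122 FPKM unwounded and 57.9, 56.4, 57.3 and 81.5 FPKM wounded, and in cheek at 67.6, 70.1, 61.9 and 41.6 and 46, 29.1, 42.9 and 65.9 FPKM. All mice of abdomen and back were lower in the wound and the groups were apart, while in cheek mouse 4 went from 41.6 to 65.9 FPKM and the groups overlapped. This gave a log2 fold change of -0.6 ± 0.21 in abdomen (adjusted p = 0.049), -0.75 ± 0.21 in back (0.0133) and -0.42 ± 0.21 in cheek (0.145, 95% interval -0.88 to 0.05). The abdomen call was lost in 10 of 12 fits that left out a mouse (adjusted p up to 0.146, without abdomen mouse 3) and under median-ratio scaling, and the back call was lost without back mouse 3 (adjusted p = 0.0649). Without cheek mouse 4, Adamts2, Adam33 and Adamts9 were also called in cheek wounds. Adamts14 rose in back from 3.43 ± 0.684 to 6.07 ± 0.903 FPKM and in cheek from 3.19 ± 0.477 to 4.66 ± 1.10 FPKM (log2 fold change 0.74 and 0.47). In cheek this call was lost without cheek mouse 2 (adjusted p = 0.202), and in abdomen the value was 0.15 (adjusted p = 0.479).

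Adamts7 (chromosome 9, 90162904 to 90200102) and Adamts12 both cleave cartilage oligomeric matrix protein, and of this pair Adamts7 rose. Its levels were 0.65, 0.58, 0.59 and 0.9 FPKM in unwounded abdomen and 3.1, 2.27, 1.33 and 1.96 FPKM in the wounds. Back had 0.71, 1.07, 0.71 and 0.46 and 2.71, 2.69, 2.3 and 2.26 FPKM, and cheek 1.02, 0.81, 1.5 and 1.3 and 2.22, 3.66, 6.14 and 3.92 FPKM. Again the wound was higher in all 12 mice and the groups of each site were apart, the cheek wounds ranging most widely. Its log2 fold change was 1.14 ± 0.18, 1.29 ± 0.18 and 1.38 ± 0.18 in abdomen, back and cheek (adjusted p = 0.000561, 0.000107 and 8.97e-05). Adamts12 lay between 4.01 and 8.29 FPKM in all libraries and had a mean log2 fold change of -0.11 (95% interval -0.29 to 0.08). Adamts10, linked to fibrillin microfibrils, and Adamts13, which cleaves von Willebrand factor, were not called either, with -0.12 (-0.28 to 0.05) and 0.00 (-0.23 to 0.22). Adamts17 fell in the mean of the 3 sites by 0.31 (adjusted p = 0.0117).

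No ADAMTS-like member was called higher, and 4 of the 5 fell in the mean of the 3 sites, where 29.4% of all tested genes fell. Adamtsl4, which binds fibrillin microfibrils (chromosome 3, 95676201 to 95687927), was the member that fell at all 3 sites. Its levels were 9.75, 10.7, 9.54 and 11.7 FPKM in unwounded abdomen and 5.91, 7.38, 6.67 and 8.76 FPKM in wounds. They were 9.99, 15.4, 12 and 14 and 7.51, 8.36, 7.06 and 9.61 FPKM in back and 16.5, 16.6, 12.3 and 8.78 and 11.5, 7.04, 6.73 and 7.51 FPKM in cheek. The wound was lower in all 12 mice, although the cheek groups overlapped, since unwounded mouse 4 (8.78 FPKM) was below wounded mouse 1 (11.5 FPKM). The fold change on the log2 scale was -0.52 ± 0.13, -0.62 ± 0.13 and -0.68 ± 0.13 (adjusted p = 0.00945, 0.00206 and 0.00157), and the abdomen call was lost without abdomen mice 2 and 3 (adjusted p = 0.0815).

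Adamtsl5, another microfibril-binding member (chromosome 10, 80339793 to 80349030), fell in back and cheek. Back skin held 19.6, 21.7, 17.8 and 17.9 FPKM unwounded and 9.69, 10.4, 9.76 and 10.9 FPKM wounded, and cheek skin 19.3, 22.8, 18.4 and 16.1 and 13.2, 10.6, 9.69 and 12.1 FPKM. In abdomen the values were 17, 12.9, 15.5 and 13.7 and 11.2, 11.4, 13.8 and 13.7 FPKM. All 12 mice were lower in the wound, but the abdomen groups overlapped, and the values of mouse 4 there were nearly equal. Fitted log2 fold changes were -0.88 ± 0.12 in back and -0.73 ± 0.12 in cheek (adjusted p = 8.45e-05 and 0.000524), and -0.23 ± 0.12 in abdomen (0.156, 95% interval -0.48 to 0.03).

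Adamtsl2, mutated in the connective tissue disorder geleophysic dysplasia (chromosome 2, 27079336 to 27108981), was low and also fell in back and cheek. In back it was at 0.56, 1.58, 1.1 and 1.29 FPKM unwounded and 0.38, 0.75, 0.59 and 0.65 FPKM wounded. Cheek libraries held 1.26, 2.52, 1.8 and 1.6 and 0.9, 0.93, 0.32 and 1.14 FPKM and abdomen libraries 1.48, 1.17, 1.29 and 1.1 and 0.91, 0.82, 0.83 and 0.68 FPKM. All 12 mice were lower in the wound, and the back groups overlapped through unwounded mouse 1. On the log2 scale the fold change was -0.55 ± 0.17 in back, -0.81 ± 0.17 in cheek and -0.42 ± 0.17 in abdomen (adjusted p = 0.0204, 0.00309 and 0.0763), and the back call was lost without back mouse 2 (adjusted p = 0.085). Adamtsl1 fell in abdomen by 0.48 (adjusted p = 0.0477), a call lost in 7 of 12 fits that left out a mouse, and Adamtsl3 was not called. In the mean of the 3 sites Adamtsl1 fell by 0.32 (limma adjusted p = 0.0122), a call lost without abdomen mice 2 and 3 (0.0713).

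**Figure D3:**
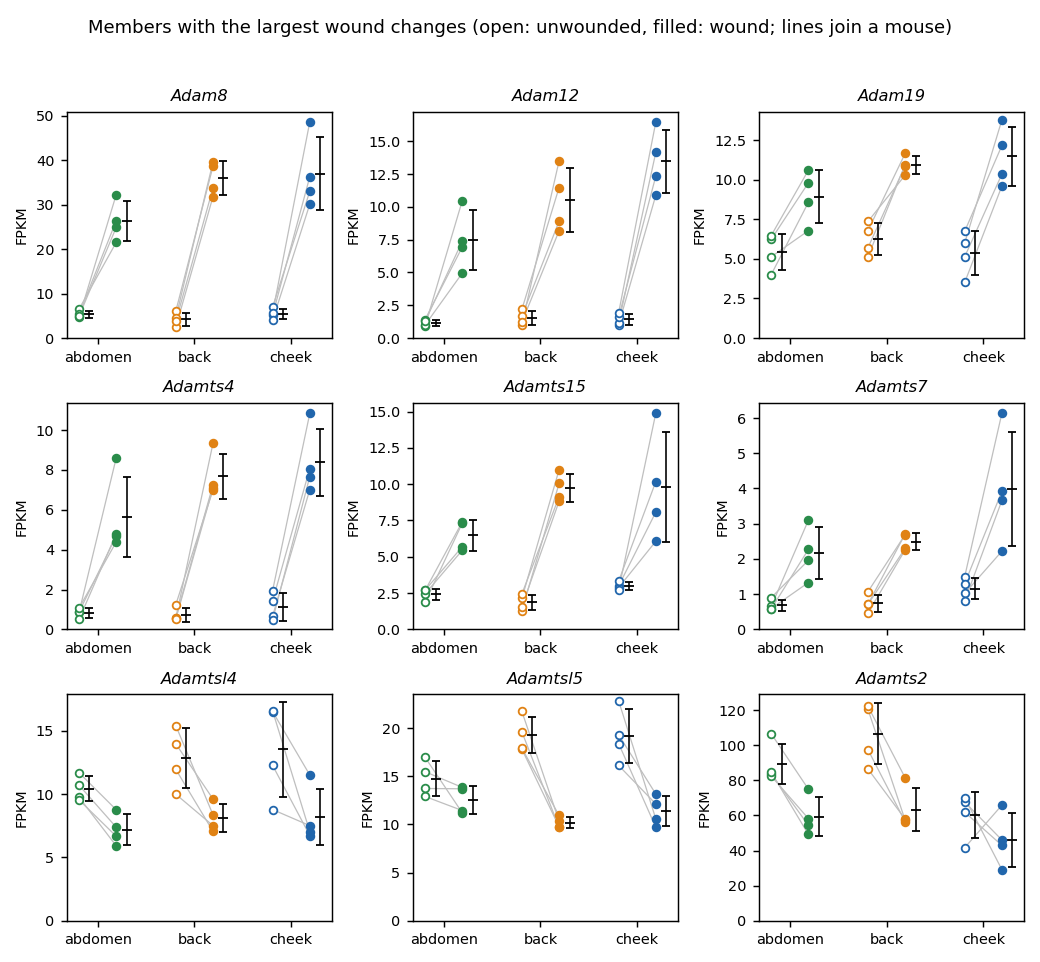
FPKM of 9 members with large wound changes, with a panel for each gene, a site on each position of the horizontal axis, open circles for unwounded skin, filled circles for wounds, lines joining the libraries of a mouse, and bars for the mean ± SD of 4 libraries. For Adam8, Adam12, Adamts4 and Adamts15 each wound lies above every unwounded library, and Adamtsl4 and Adamtsl5 are lower in the wound of all 12 mice.

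The next comparison asked whether the wound response itself differed between sites, with a moderated F test (limma) of the differences between the 3 wound effects. It called 0 of 31 members, and 3 of 14423 genes (0.0208%). At an unadjusted p under 0.05 there were 6 members, a count from which nothing is drawn, since the share of all genes is not given here. The 4 smallest p-values were those of Adamtsl5, Adam33, Adam8 and Adamts15, with adjusted p = 0.233, 0.239, 0.277 and 0.286. The fall of Adamtsl5 was larger in back than in abdomen by 0.66 on the log2 scale (95% interval -1.02 to -0.3, as back minus abdomen). The fall of Adam33 was smaller in cheek than in back by 0.59 (0.23 to 0.95). The rises of Adam8 and Adamts15 were larger in back than in abdomen by 0.82 (0.31 to 1.34) and 0.89 (0.3 to 1.48). After adjustment over all genes none of these passed, so a call at 1 site and none at another is not shown to be a difference between sites.

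Sites were then compared within unwounded skin, where 30 members were among 13956 genes tested. At least 1 pair of sites differed for 4 members, which is 13.3% against 4.92% of all tested genes. Back differed from abdomen in 1 member (2.67% of all genes), cheek from abdomen in 3 (2.57%) and cheek from back in 2 (1.05%). At an unadjusted p under 0.05 in any pair there were 15 members. The share of all genes at this unadjusted p is not given here, so nothing is drawn from that count. The 4 libraries of a site did not overlap with those of another for 3 members between back and abdomen, 5 between cheek and abdomen and 5 between cheek and back (13.3%, 10.6% and 14.6% of all tested genes). The median difference of the members was -0.12 for back minus abdomen, 0.01 for cheek minus abdomen and 0.11 for cheek minus back, beside -0.12, 0.03 and 0.14 for all tested genes, a shift that median-ratio scaling took to 0.00, 0.02 and 0.01. Adamts8 and Adamts20 passed the filter only through the site where they were high, so their place in this count was favoured by the filter. With a filter of 1 FPKM the count was 2. The count rested on few libraries. It was 3 without cheek mouse 4 (Adam33, Adamts20 and Adamts8), and 1 without abdomen mice 2 and 3 (Adamts20).

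Adamts20, a versican-cleaving enzyme known from melanoblast migration in the embryo (chromosome 15, 94268314 to 94432074), was higher in unwounded cheek. Cheek libraries of mice 1 to 4 held 1.15, 1.07, 0.92 and 1.48 FPKM, against 0.27, 0.19, 0.23 and 0.38 FPKM in abdomen and 0.16, 0.11, 0.39 and 0.56 FPKM in back. The lowest cheek value, 0.92 FPKM, was above the highest elsewhere, 0.56 FPKM. As a description, since the filter favoured it, the log2 difference was 1.1 ± 0.19 against abdomen and 1.07 ± 0.19 against back. With every gene above 0 in any library tested, an alternative that selects no site, the adjusted p from limma was 0.0112 and 0.0141. Without cheek mouse 4, the library with growing hair follicle keratins, these differences were 1.01 and 0.98 (adjusted p with the filter 0.0374 and 0.056), and without abdomen mice 2 and 3 they were 1.00 and 1.07 (0.238 and 0.0347). In the wounds Adamts20 was at 0.67, 0.39, 0.13 and 0.43 FPKM in cheek, 0.09, 0.07, 0.07 and 0.21 FPKM in abdomen and 0.29, 0.3, 0.08 and 0.32 FPKM in back. Its log2 fold change in cheek wounds was -0.89 ± 0.17, with all 4 mice lower (limma adjusted p = 0.00135 without the filter), and it was too low to be compared between wounds of the sites.

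Adamts8, an inflammation-associated proteoglycanase whose gene lies 20109 bases from Adamts15 (chromosome 9, 30942562 to 30963838), was higher in abdomen. The unwounded libraries held 0.86, 0.93, 0.82 and 0.74 FPKM in abdomen, 0.26, 0.3, 0.41 and 0.32 FPKM in back and 0.39, 0.45, 0.39 and 0.46 FPKM in cheek, and 0.67, 0.46, 0.7 and 0.89, 0.58, 0.37, 0.52 and 0.37 and 0.65, 0.68, 0.53 and 0.57 FPKM in the wounds of these sites. Before wounding each abdomen library was above every library of the other sites. As for Adamts20, the log2 differences are a description, with -0.7 ± 0.13 for back minus abdomen and -0.53 ± 0.13 for cheek minus abdomen. Without the filter, their adjusted p from limma was 0.00269 and 0.0124. With the filter, the call for cheek minus abdomen was lost under median-ratio scaling and in each of the 8 fits without a mouse in which the gene was still tested (adjusted p up to 0.125), and without an abdomen mouse the gene no longer passed the filter.

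Adam33 was lower in unwounded cheek, with the values given above. The log2 difference of cheek minus abdomen was -0.94 ± 0.18 (adjusted p = 0.0175, exact permutation p = 0.0286), with the highest cheek library at 2.76 FPKM below the lowest abdomen library at 3.43 FPKM. It was -0.83 without cheek mouse 4 (adjusted p = 0.0391) and -0.82 without abdomen mice 2 and 3 (0.29). Adamts2 was lower in unwounded cheek than in back, its cheek values lying between 41.6 and 70.1 FPKM and its back values between 86.5 and 122 FPKM. This log2 difference was -0.83 ± 0.17 (adjusted p = 0.0362), was lost in 8 of 12 fits that left out a mouse, and was -0.66 without cheek mouse 4 (adjusted p = 0.0568). Cheek minus abdomen was -0.58 ± 0.17 for Adamts2, which did not pass the test (0.089) although the libraries did not overlap. Among the skin-structure markers, Myh11, 1 of 4 smooth muscle markers, was lower in unwounded back and cheek than in abdomen. The median summed level of the 4 was 659 and 646 FPKM in back and cheek, against 496 FPKM in abdomen. This abdomen median rested on mice 2 and 3, whose libraries were low in skeletal muscle genes and held 165 and 328 FPKM here. Abdomen mice 1 and 4 held 692 and 664 FPKM, within the ranges of back (595 to 837 FPKM) and cheek (486 to 884 FPKM). The part of Myh11 in the differences of the members was not tested.

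**Figure D4:**
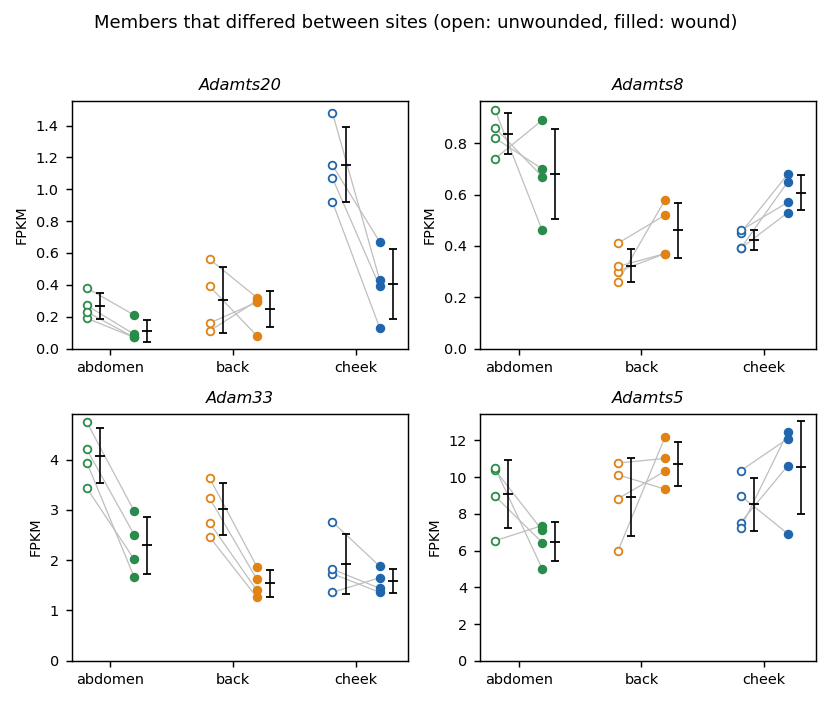
FPKM of Adamts20, Adamts8, Adam33 and Adamts5 by site, with open circles for unwounded skin, filled circles for wounds, lines joining the libraries of a mouse, and bars for the mean ± SD of 4 libraries. The unwounded cheek libraries of Adamts20 (0.92 to 1.48 FPKM) and the unwounded abdomen libraries of Adamts8 (0.74 to 0.93 FPKM) do not overlap with the other sites.

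Among wounds, 27 members and 14023 genes were tested, and 3 members differed in at least 1 pair of sites. This is 11.1% of the members and 12.2% of all genes, so the share of members was near the background. All 3 calls were in cheek against abdomen (10.8% of all genes), where Adam12, Adamts5 and Adam9 were higher in cheek. With limma, 0 members were called in back against abdomen and in cheek against back (1.27% and 2.5% of all genes). An unadjusted p under 0.05 was reached by 10 and 6 members, counts for which no share of all genes is given here. The libraries were apart for 3 members between back and abdomen, 4 between cheek and abdomen and 4 between cheek and back (9.16%, 19% and 21.3% of all tested genes). Adam12 ranged from 10.9 to 16.5 FPKM in cheek wounds and from 4.95 to 10.5 FPKM in abdomen wounds, which do not overlap, with a log2 difference of 0.84 ± 0.21 (adjusted p = 0.0308). Adam9 ranged from 30.7 to 32.5 FPKM in cheek and from 14.6 to 25.8 FPKM in abdomen, with 0.57 ± 0.16 (0.0393). Adamts5 had 0.64 ± 0.17 (0.0371), but its libraries overlapped, and the exact permutation p of the FPKM values was 0.0857. All 3 calls were lost without cheek mouse 4 (adjusted p = 0.0695, 0.0758 and 0.0843) and without abdomen mice 2 and 3 (0.194, 0.125 and 0.181), in the order Adam12, Adam9, Adamts5, and the count ranged from 0 to 8 when a mouse was left out, reaching 8 without abdomen mouse 1. Also higher in cheek than in abdomen wounds were 2 of 5 neutrophil markers (Mmp8 and Csf3r) and 2 of 5 fibroblast markers (Pdgfra and Col6a3). So were 2 of 7 skeletal muscle markers (Acta1 and Myh4). The median summed level was not higher in cheek for neutrophil markers (896 against 930 FPKM) or fibroblast markers (857 against 878 FPKM). For skeletal muscle markers it was 5603 against 3029 FPKM. The part of these markers in the differences of the members was not tested.

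**Figure D5:**
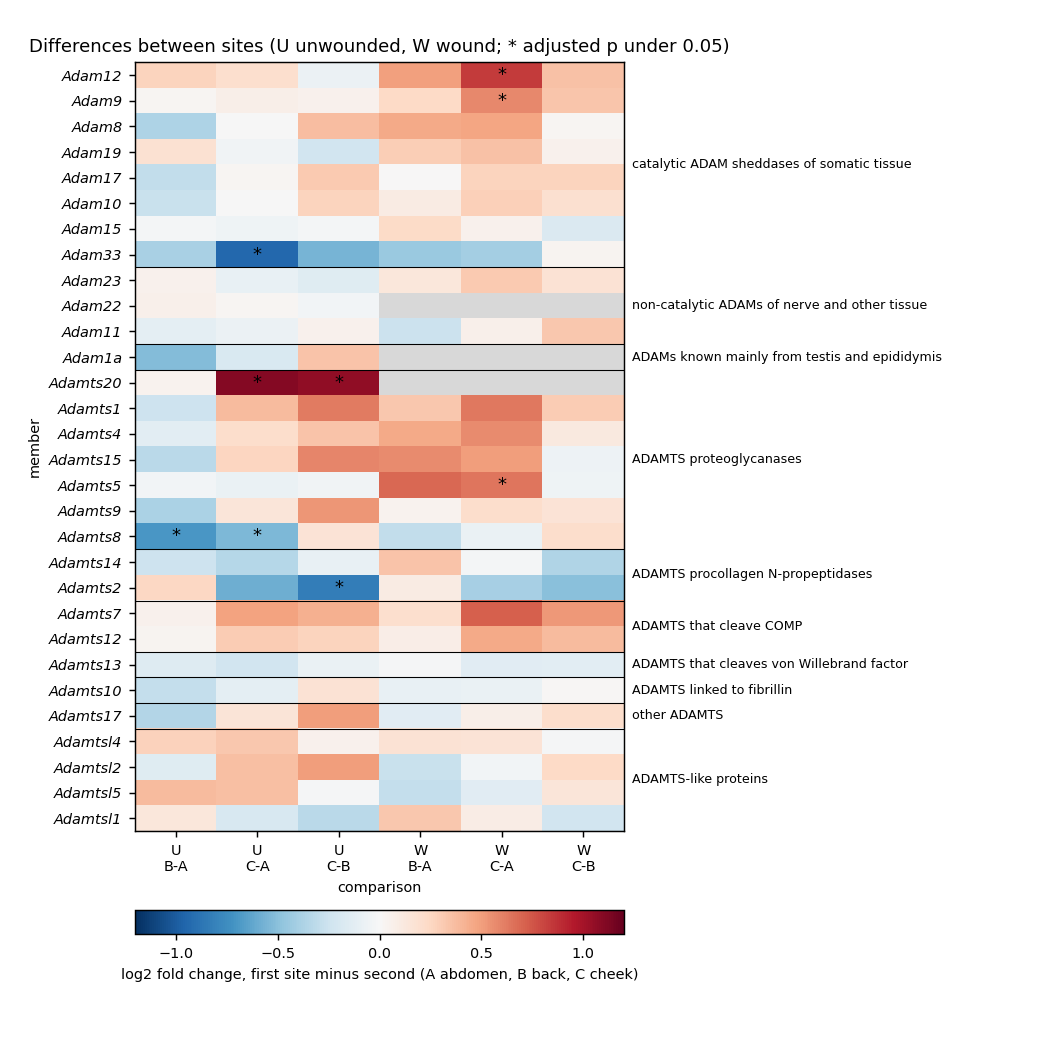
Heat map of log2 differences between sites (rows are members grouped by role, columns are the pairs of sites in unwounded skin, marked U, and in wounds, marked W, with grey for members not tested and an asterisk for an adjusted p under 0.05). Asterisks stand on 6 cells of unwounded skin, among them Adamts20 at 1.10 and Adam33 at -0.94 in cheek minus abdomen, and on 3 cells of wounds, all in cheek minus abdomen.

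Genes that act with the members were described from lists of inhibitors, partners, activating enzymes and substrates. Of all tested genes, 32.9% were called in abdomen wounds, 45.9% in back and 36.6% in cheek. The counts from these short lists are therefore a description, and nothing is drawn from them about a pathway. Of the 5 metalloproteinase inhibitors tested, Timp1 rose at the 3 sites and Timp2, Timp3, Timp4 and Reck fell at the 3 sites. Timp1 went from 13.5 ± 2.91 to 132 ± 72.4 FPKM in abdomen, from 20.4 ± 7.66 to 208 ± 36.3 FPKM in back and from 11.5 ± 2.19 to 159 ± 64.9 FPKM in cheek. Timp3, the inhibitor that acts on ADAM17 and on many ADAMTS enzymes, went from 61 ± 5.82 to 28 ± 7.28 FPKM in abdomen, from 58.1 ± 7.15 to 29.2 ± 5.41 FPKM in back and from 69.5 ± 8.95 to 34.2 ± 10.4 FPKM in cheek, with log2 fold changes of -1.14, -0.99 and -1.05. The Timp2 call in cheek was lost in 7 of 12 fits that left out a mouse (adjusted p up to 0.241, without cheek mouse 2) and under quantile normalization, that of Timp2 in abdomen in 2 fits (up to 0.0966, without abdomen mouse 1), and that of Timp4 in cheek in 2 (up to 0.0931, without cheek mouse 2). The sixth listed inhibitor, A2m, was not tested, with at most 0.25 FPKM.

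Of the 8 tested partners that escort ADAM10 and ADAM17 to the cell surface, 3 rose in abdomen and 1 in cheek, while back skin had 3 that rose and 2 that fell. Frmd8, a stabiliser of the iRhom and ADAM17 complex, rose at the 3 sites by 0.44, 0.78 and 0.51. Rhbdf2 (iRhom2) and Tspan14 rose in abdomen and back, by 0.34 and 0.29 and by 0.30 and 0.48, while Rhbdf1 and Tspan5 fell in back by 0.33 and 0.23. Among 4 convertases that remove ADAM prodomains, Furin rose at the 3 sites by 0.55, 0.57 and 0.66 and Pcsk6 fell by 0.61, 0.68 and 0.45. Pcsk5 rose in back by 1.16 and Pcsk7 in abdomen by 0.19. The back call of Rhbdf2 was lost under both other scalings, and the abdomen call of Pcsk7 under quantile normalization and in 11 of 12 fits that left out a mouse (adjusted p up to 0.159, without abdomen mouse 3). Leaving out a mouse also lost the calls of Rhbdf2 and Tspan14 in abdomen and of Rhbdf2 and Rhbdf1 in back in 3 of 12 fits each, and of Tspan5 in back in 5.

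Shed ligands of the epidermal growth factor receptor moved both ways. Of 7 tested, 3 rose and 2 fell in back and in cheek, against 1 and 2 in abdomen. Hbegf rose at the 3 sites by 1.31, 1.65 and 2.02, and Btc and Egf fell at the 3 sites, Btc by 1.12, 1.30 and 1.26 and Egf by 0.75, 1.37 and 1.15. Areg and Epgn rose in back by 2.28 and 1.56 and in cheek by 1.93 and 1.44. With a mouse left out, the Epgn call was lost in 8 of 12 fits in cheek (adjusted p up to 0.132, without cheek mouse 4) and 3 in back (up to 0.123, without back mouse 3), and the abdomen call of Egf in 2 (up to 0.202, without abdomen mouse 1). Of 16 other shed substrates, 7 rose and 1 fell in abdomen, 8 and 1 in back, and 6 and 1 in cheek. These counts stand beside 32.9%, 45.9% and 36.6% of all tested genes called at these sites. Tnf, the cytokine released by ADAM17, rose by 1.84, 3.52 and 3.49, from a mean of 1.86 to 8.44 FPKM in abdomen, from 1.14 to 18.1 FPKM in back and from 0.958 to 16.9 FPKM in cheek. Its receptor Tnfrsf1b rose by 1.51, 1.83 and 1.84. Notch1, Cdh1 and App, which ADAM10 cleaves, were not called at any site.

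Of 15 tested ADAMTS substrates and cofactors, 6 rose and 2 fell in back and in cheek, against 5 and 4 in abdomen. Over all tested genes, 45.9%, 36.6% and 32.9% were called in back, cheek and abdomen. Vcan, the versican cleaved by the proteoglycanases, rose by 0.66, 1.56 and 1.00, from 7.22 ± 0.951 to 11.9 ± 3.16 FPKM in abdomen, from 5.64 ± 0.859 to 17.4 ± 0.517 FPKM in back and from 7.81 ± 1.89 to 15.8 ± 1.24 FPKM in cheek. Fbln2 and Fbn2, which code for microfibril proteins, rose at the 3 sites by 0.86, 1.36 and 1.36 and by 0.94, 1.41 and 0.86. The abdomen call of Vcan was lost without abdomen mouse 1 (adjusted p = 0.0664). Thbs1 rose by 1.11, 2.00 and 1.74 and Bgn by 0.59, 0.73 and 1.02. Col1a1 and Col1a2, whose procollagens Adamts2 and Adamts14 trim, fell at the 3 sites, Col1a1 by 0.68, 1.00 and 0.84 and Col1a2 by 0.94, 1.26 and 1.06. The Col1a1 call was lost in 4 of 12 such fits in abdomen (adjusted p up to 0.0858, without abdomen mouse 2) and in 1 in cheek (0.0521, without cheek mouse 2). Of the 3 tested related extracellular proteins, Papln fell in abdomen and cheek by 0.55 each, Bmp1, the procollagen C-proteinase, rose in back by 0.48 and in cheek by 0.65, and Thsd4 was not called at any site. The back call of Bmp1 was lost under both other scalings and in 2 fits without a mouse (adjusted p up to 0.0938, without back mouse 1), and the abdomen call of Papln in 2 (up to 0.0811, without abdomen mouse 4).

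The 17 untested members were near 0. The highest values were 1.45 FPKM for Adamts18, in the unwounded cheek library of mouse 4 that held growing hair follicle keratins, 0.80 FPKM for Adamts16 and 0.61 FPKM for Adamts6. Adamts19 reached 0.36 FPKM and Adamts3 0.32 FPKM. The other 12 were Adam genes, and most of these are known from testis or epididymis. Among them Adam5 reached 0.48 FPKM, Adam4 0.16 FPKM, Adam28 0.14 FPKM and Adam30 0.12 FPKM, while Adam1b, Adam2, Adam3, Adam6b, Adam7, Adam21, Adam29 and Adam32 stayed at or under 0.10 FPKM in all 24 libraries.

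Several members are neighbours in the genome, and neighbours did not always move alike. On chromosome 16, Adamts1 and Adamts5 lie 55043 bases apart, and Adamts1 rose at the 3 sites while Adamts5 was not called. Adamts15 and Adamts8, 20109 bases apart on chromosome 9, showed the same split of a rise and no call. On chromosome 8, Adam32 lies 692 bases from Adam9, and Adam32 reached at most 0.05 FPKM where Adam9 lay between 14.6 and 32.5 FPKM. Exons of Adam8, Adamts7, Adam19, Adamts8, Adam15, Adam17 and Adamts9 share between 46 and 1381 bases with a gene on the other strand, and whether strand was used in counting is not given in the sources used here.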

How the data were processed

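Per the labels and the study's methods, RNA of the 24 skin samples was sequenced on the BGISEQ-500, and the authors estimated FPKM per gene against GRCm38 with HISAT2, Bowtie2 2.2.5 and RSEM 1.2.12. The deposited table holds FPKM for 18368 genes. Its 18 columns of the authors' own comparisons hold log2 fold changes and p-values and were not used. FPKM is already scaled for length and library, so no count test could be run and depth was unknown. Relative depth, estimated roughly from the steps of 60 low genes, was 0.923 to 1.06, and no libraries were identical.

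Groups came from the labels. limma 3.58.1 (R 4.3.3, trend and robust moderation) was run on log2(FPKM + 0.5) for genes that reached 0.5 FPKM in 4 or more libraries of a fit, with Benjamini-Hochberg adjustment over all tested genes and a threshold of 0.05. The wound effect was fitted on 24 libraries with a term for each mouse, since both libraries of a mouse pair by its label (the deviations of a mouse's libraries correlated at a mean of 0.322, 0.348 and 0.281 in abdomen, back and cheek). Sites were compared on the 12 unwounded or the 12 wound libraries. Exact permutation tests were two-sided. On simulated data with 200 of 14423 genes changed by 1 on the log2 scale, the F test found 127 with 6 others called. The comparison of unwounded back and abdomen found 155 with 12 others. The simulation used normal noise and an assumed size of the mouse effect. The largest difference of response among the members was 0.89, so these counts do not show how often such smaller differences would be found. Values in every library are given for the 6 largest rises and 4 largest falls of the mean wound effect with the same call at 2 or more sites, the 6 members with the smallest adjusted p between sites, and the 4 with the smallest p for a difference of response. The members and lists were chosen with earlier results of these data known. The alternatives tried were other pseudocounts, filters, scalings, moderation, designs and left-out mice.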

Additional observations from a re-analysis of the deposited data

Results flagged for a closer look

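In each group of 4 libraries, the lowest and highest value of the 14 members described in full were compared with the others, and a value was marked when its gap to the nearest other value, divided by the range of the group, passed Dixon's 95% critical value for 4 values. This marked 8 of 84 groups, where chance marks about 1 in 20. Adamts2 stood apart at 106.6 FPKM in the unwounded abdomen of mouse 4 (gap over range 0.912) and at 81.48 FPKM in the back wound of mouse 4 (0.941). Adamts4 stood apart at 8.61 FPKM in the abdomen wound of mouse 1 (0.903), at 1.24 FPKM in the unwounded back of mouse 1 (0.903) and at 9.34 FPKM in the back wound of mouse 2 (0.893). For Adamts20 these were the abdomen wound of mouse 4 at 0.21 FPKM (0.857) and the back wound of mouse 3 at 0.08 FPKM (0.875). Adamtsl4 was at 11.51 FPKM in the cheek wound of mouse 1 (0.837). Both Adamts2 values were the highest of their groups, as were the 3 of Adamts4.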

How the results depend on the processing

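Among the values of named members, 414 of 424 alternatives with all mice kept the direction and the side of the threshold, 10 kept the direction but no longer passed, and 0 reversed. The 84 called results of all members kept their direction under median-ratio scaling and quantile normalization, with 6 and 4 calls lost. The count of members that differed between unwounded sites was 4. It was 2 with a filter of 1 FPKM, 1 without abdomen mice 2 and 3, and from 1 to 4 when 1 mouse was left out, with 2 without abdomen mouse 1 and 1 without abdomen mouse 2 or 3. Between wounds the count of 3 was 1 with median-ratio scaling, 0 without abdomen mice 2 and 3, and from 0 to 8 with 1 mouse left out. It was 8 without abdomen mouse 1, 1 without back mouse 2, cheek mouse 2 or abdomen mouse 3, and 0 without cheek mouse 3 or cheek mouse 4. The abdomen count of 14 was 8 without abdomen mice 2 and 3, an alternative chosen after seeing the data. With 1 mouse left out, the wound counts ranged from 10 to 14 in abdomen, 16 to 19 in back, 15 to 20 in cheek and 23 to 24 in the mean of the sites. The cause of these moves was not tested. Without the replicate block, that is without the pairing by mouse, 12, 19, 18 and 24 members were called in abdomen, back, cheek and the mean of the sites, and 42 of 42 named member results kept their call. FPKM without counts give no counting error, so values under about 0.5 FPKM cannot be given a precision.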
